A study of Mus musculus with 48 samples.

Results

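The lungs described here were lungs of neonatal mice exposed to hyperoxia (95% oxygen), followed from P5, the end of the exposure, to P21, after recovery in room air. Members were chosen by label alone: every whole lung RNA library of an O2 mouse at either age, which was 24 of 48 libraries. The P5 XXM O2 libraries of animals 22 and 23 were then left out because they held few genes (17201 genes with a count in animal 22 and 15727 in animal 23 when every library was thinned to the smallest total, against 21333 to 21905 in the other 10 P5 libraries). That left 22 of 48 libraries, 10 at P5 and 12 at P21.

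All mice carried the C57BL/6J background and came from the 4 core genotypes (FCG) cross, in which the testis-determining gene Sry is lost from the Y chromosome and carried as a transgene on an autosome. XXF and XYF mice therefore had ovaries, and XXM and XYM mice had testes. The exposed P5 group held 3 XXF, 3 XYF, 3 XYM and 1 XXM library, and the exposed P21 group held 3 of each genotype. Room air (RA) mice of the same genotypes gave 12 further libraries at each age, which were used where the exposed course was set beside growth in room air. The study's methods date the exposure to high oxygen to P1 to P4 with collection on P5, whereas the series text gives P1 to P5 with an early collection on P7. The sample labels say postnatal day 5, and P5 is used throughout. For 1 room air library, animal 34, the column header names day 1 and the sample title day 21, and it was used as P21 by its title. Its level of Inmt was 1773 CPM, against 1712 to 3120 CPM in the other 11 room air P21 libraries and 11.3 to 33.3 CPM in the 12 room air P5 libraries, and its level of Prss35 was 2.92 CPM, against 1.55 to 3.29 and 145 to 244 CPM. No library of day 1 was at hand for the same comparison. Every library came from a different animal, so the change from P5 to P21 compares animals and does not follow one.

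Exposed P5 libraries held 6008291 to 20820622 gene counts and exposed P21 libraries 13088156 to 31348391. The labelled tissue was borne out by its markers in all 22 libraries: Sftpc, a surfactant gene, ran from 13351 to 42370 CPM (counts scaled by library total with TMM factors), Ager of alveolar type 1 cells from 1391 to 5151 CPM and Cdh5 of endothelium from 522 to 981 CPM. At P21, 4 of 12 exposed libraries (animals 51, 52, 59 and 60) stood apart, with a skeletal muscle gene list that summed to 965 to 3130 CPM, against 11 to 69.9 CPM in the other 8. The library of animal 51 also carried 6572 CPM of a liver gene list, against 34.1 to 61.7 CPM in the other 11 exposed P21 libraries. Animal 53 held the fewest genes at the thinned depth, 20211 against 21205 to 21780 in the other 11. Counts of called genes are given without the 4 muscle-rich libraries where that mattered. Haemoglobin genes took 0.298% to 0.552% of counts at P5 and 0.872% to 2.93% at P21.

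Between these ages the mouse lung leaves the saccular stage and forms alveoli: secondary septa grow out, elastin is laid down at their tips by myofibroblasts, the capillary bed is remodelled into a single layer, and cell division slows. Hyperoxia in newborn mice is used as a model of bronchopulmonary dysplasia, in which that septation is arrested. Oxygen injury is known for DNA damage with p53 activity, for induction of antioxidant genes and for inflammation, all of which can subside once the animals return to room air.

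The exposed lungs at P21 differed from those at P5 in a large part of the transcriptome. By edgeR's quasi-likelihood test with Benjamini-Hochberg adjustment and genotype as an additive term, 4437 of 16541 genes (26.8%) changed, of which 2547 rose (15.4% of genes tested) and 1890 fell (11.4%), at an adjusted p under 0.05 and a change of at least 1.5-fold. Here and below, rose and fell are used only of genes past both limits. At 4-fold or more, 331 genes rose (2.00%) and 334 fell (2.02%). The median log2 fold change over all tested genes was 0.02. Among the called genes, 1238 rises (7.48%) and 1197 falls (7.24%) had no overlap between the 10 P5 and the 12 P21 libraries. In whole lung, fewer cells of a type and less RNA per cell cannot be told apart, and this holds for every gene below. The first principal component separated the ages and carried 58.5% of the variance.

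**Figure D1:**
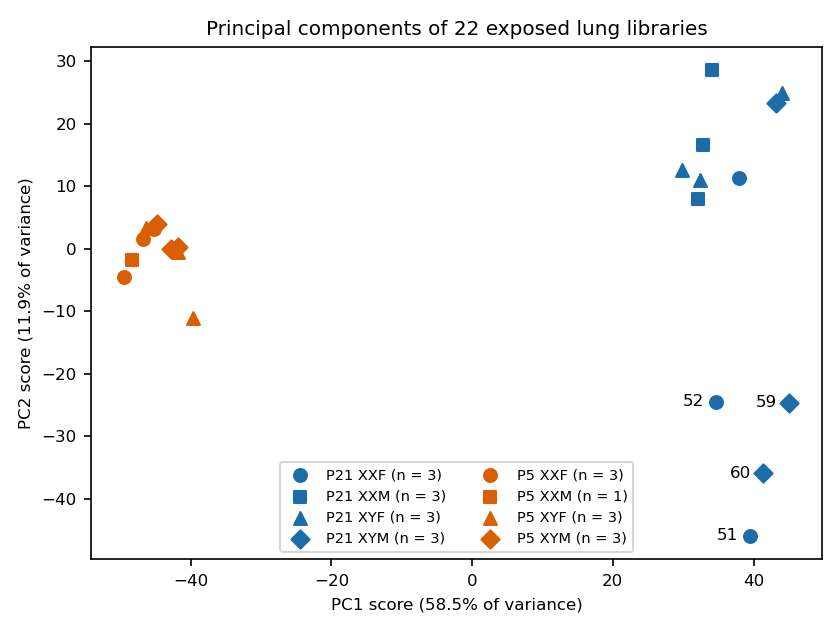
Principal component scores of the 22 exposed libraries, PC1 (58.5% of the variance) against PC2 (11.9%), with colour for age and shape for genotype. All P5 libraries lie at the left and all P21 libraries at the right, and the 4 numbered P21 libraries (animals 51, 52, 59 and 60) are those with skeletal muscle transcripts.

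Among called genes with no overlap and a mean of at least 20 CPM at the higher age, the largest rise was that of Inmt, an indole methyltransferase known from lung interstitial fibroblasts (chromosome 6, 55170626 to 55175043, minus strand, GRCm38). Its lowest, median and highest levels were 8.05, 25 and 74.3 CPM at P5 and 1653, 2457 and 3402 CPM at P21. The groups lay far apart, and the rise was 87.5-fold (log2 fold change 6.45 ± 0.25 SE, edgeR adjusted p = 1.67e-15). Cxcl14, a chemokine, rose 31-fold and was the gene with the smallest p: 3.39, 4.87 and 6.08 CPM at P5 against 125, 151 and 184 CPM at P21 (4.96 ± 0.09, edgeR adjusted p = 1.48e-20). Every P21 library again exceeded every P5 library. Chil3, a chitinase-like protein of alveolar macrophages that shares sequence with Chil4 and is uncertain for that reason, went from 5.39, 11.6 and 20.9 CPM to 146, 294 and 1017 CPM (4.87 ± 0.36). The highest P21 value came from animal 53.

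The other 9 of the 12 largest rises within these limits were of mixed roles. Colq, the collagen tail of acetylcholinesterase, rose by a log2 fold change of 4.70 ± 0.23, from a median of 1.01 to 22.5 CPM. Gria1, a glutamate receptor subunit, rose by 4.58 ± 0.20, from 3.20 to 79.0 CPM, and Slc6a2, the noradrenaline transporter, by 4.12 ± 0.17, from 5.20 to 95.3 CPM. Both retinoid genes in this group had low P5 levels: Lrat, which esterifies retinol, had a P5 median of 1.76 CPM and a P21 median of 27.5 CPM (4.07 ± 0.28), and Crabp1, a retinoic acid binding protein, had 1.02 and 18.7 CPM (3.93 ± 0.18). Mgl2, a lectin of macrophages and dendritic cells, rose by 4.15 ± 0.18, Ms4a4d by 4.18 ± 0.12 and Galnt15, a glycosyltransferase, by 3.99 ± 0.19. Cyp2a5, a cytochrome close in sequence to Cyp2a4 and uncertain for that reason, rose by 3.95 ± 0.49, and its P21 range of 4.31 to 150 CPM was the widest in this set relative to its median, with the highest value in animal 49.

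Within the same limits the largest fall was that of Prss35, a serine protease-like gene (chromosome 9, 86743649 to 86758443, plus strand, GRCm38). Its levels were 47.6, 82.5 and 108 CPM at P5 and 0.857, 1.77 and 2.77 CPM at P21, a 45.5-fold fall (log2 fold change -5.51 ± 0.14, edgeR adjusted p = 1.66e-18) with no overlap. Among the other 11 of the 12 largest falls, Vcan, a large proteoglycan of provisional matrix, went from 158, 188 and 247 CPM to 5.38, 13.1 and 16.6 CPM (-4.03 ± 0.17), and the microfibril gene Fbn2 from 41.5, 60.4 and 64.4 CPM to 1.27, 3.69 and 5.63 CPM (-4.02 ± 0.19). Col25a1, a transmembrane collagen, fell by a log2 fold change of 4.89, and Pappa2, a protease that cleaves IGF binding proteins, fell by 4.70. The fatty acid transporter Slc27a6 went from a median of 297 to 19.2 CPM (-4.01 ± 0.10). Dlk1, an imprinted gene of progenitor cells, went from 17.1, 21.7 and 37.2 CPM to 0.121, 0.60 and 5.36 CPM (-4.37 ± 0.40). The remaining 5 of the 12 act in DNA replication or division, namely Dtl (-4.17), Pimreg (-4.10), Pbk (-4.08), Kntc1 (-4.07) and Iqgap3 (-3.98).

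**Figure D2:**
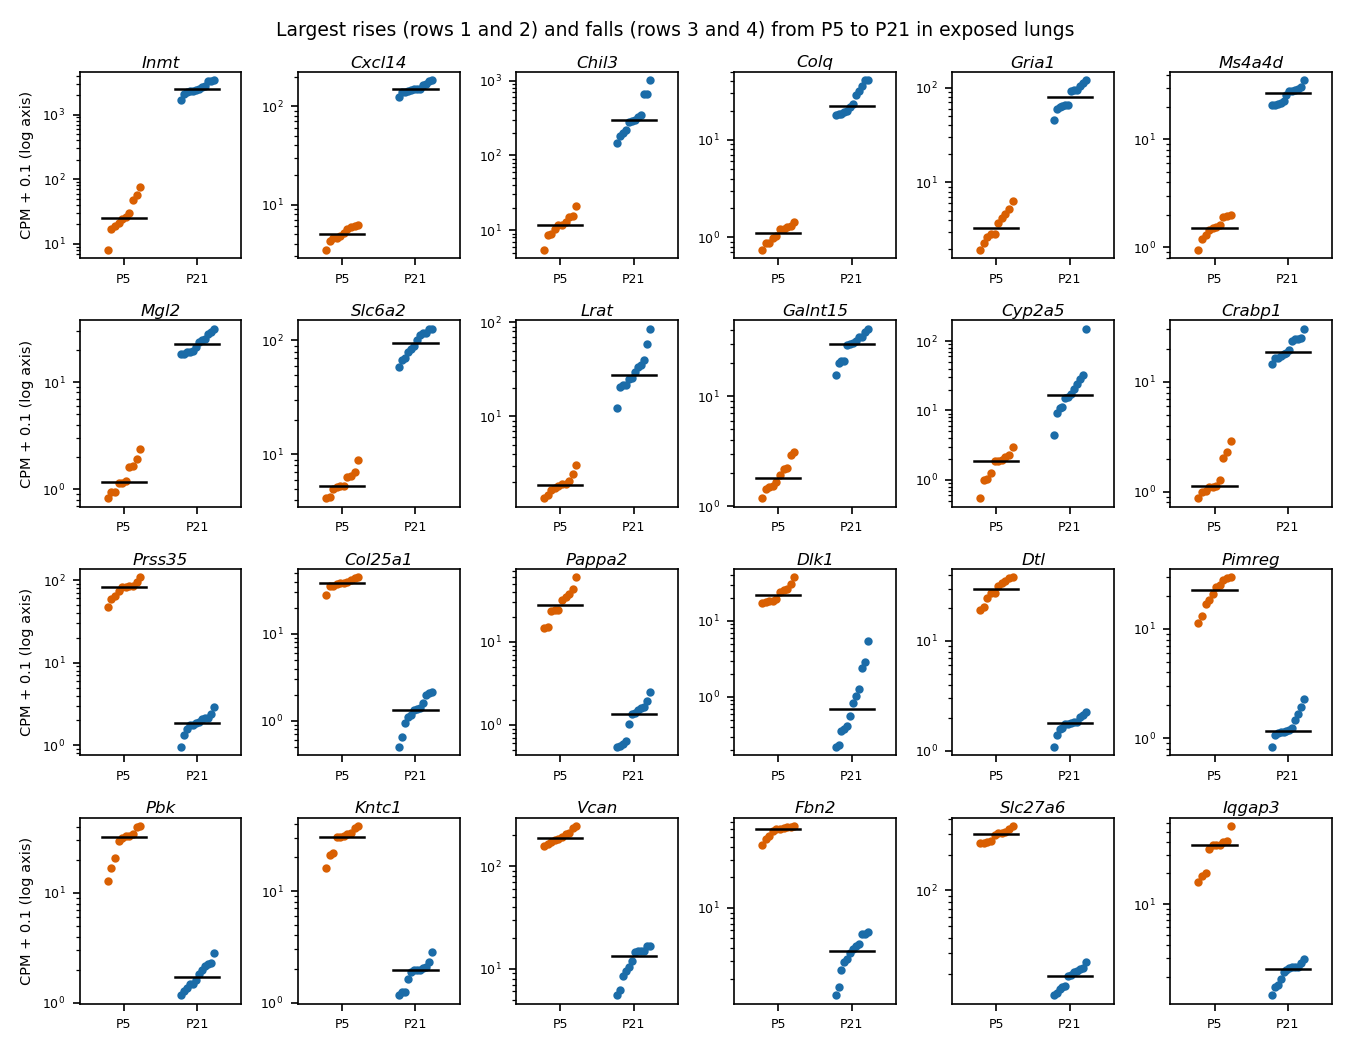
CPM plus 0.1 on a log axis for the 12 largest rises (rows 1 and 2) and the 12 largest falls (rows 3 and 4) that had no overlap between the exposed groups, 10 P5 libraries in orange and 12 P21 libraries in blue, ordered by level within an age. Black lines are medians, which for Inmt were 25 CPM at P5 and 2457 CPM at P21 and for Prss35 82.5 and 1.77 CPM.

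DNA replication and mitosis genes fell as a block. Of 40 listed genes all were tested, 40 fell, and none overlapped between the ages (11.4% of all genes fell). The median log2 fold change of the list was -2.67, from -3.59 for Hmmr to -1.07 for Pcna, against 0.02 over all tested genes, and all 40 fell under every setting tried. Summed over the list, the lowest, median and highest libraries held 1314, 2194 and 2709 CPM at P5 and 390, 436 and 472 CPM at P21.

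The promoters of Hmmr, a spindle protein and the steepest fall, Top2a, the topoisomerase that untangles chromosomes in mitosis, and Pcna, the replication clamp and the shallowest fall, are shown to set their motifs beside their changes. Sequences are from RefSeq (GRCm38.p6), 250 bases before to 50 after the start, 5′ to 3′ on the gene's strand. Capitals mark TTTGAA or TTTAAA, the core of the cell cycle homology region, and CCAAT, each searched on both strands, so that TTCAAA and ATTGG are their reverse complements. TTTAAA is its own reverse complement, and a TTTGAA match can share its last base with an ATTGG match. The windows lie at chr11:40733388-40733687 (Hmmr), chr11:99024140-99024439 (Top2a) and chr2:132253131-132253430 (Pcna), all on the minus strand.
Hmmr: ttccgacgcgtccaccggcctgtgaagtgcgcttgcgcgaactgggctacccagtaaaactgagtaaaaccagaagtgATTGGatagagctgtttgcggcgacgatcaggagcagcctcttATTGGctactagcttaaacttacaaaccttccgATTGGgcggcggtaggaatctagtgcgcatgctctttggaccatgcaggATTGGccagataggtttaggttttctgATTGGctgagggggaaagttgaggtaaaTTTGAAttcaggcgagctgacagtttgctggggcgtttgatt
Top2a: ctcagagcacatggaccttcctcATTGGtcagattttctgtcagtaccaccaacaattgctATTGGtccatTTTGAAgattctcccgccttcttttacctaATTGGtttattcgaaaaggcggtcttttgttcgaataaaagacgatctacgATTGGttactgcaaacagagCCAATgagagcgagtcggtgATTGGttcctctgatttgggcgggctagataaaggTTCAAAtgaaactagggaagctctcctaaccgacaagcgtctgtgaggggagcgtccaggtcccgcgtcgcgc
Pcna: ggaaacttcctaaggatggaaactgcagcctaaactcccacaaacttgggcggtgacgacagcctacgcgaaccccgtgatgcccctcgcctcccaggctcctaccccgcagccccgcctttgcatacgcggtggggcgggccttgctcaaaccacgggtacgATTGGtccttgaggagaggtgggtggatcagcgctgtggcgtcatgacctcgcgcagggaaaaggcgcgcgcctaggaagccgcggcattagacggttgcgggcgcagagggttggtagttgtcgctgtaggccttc

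The Hmmr window held 1 match to the homology core and 5 to CCAAT, the Top2a window 2 and 6, and the Pcna window 0 and 1. RefSeq promoters were matched for 33 of the 40 genes, 35 promoters in all. Of these, 23 (65.7%) held TTTGAA or TTTAAA, against 27.6% of 32851 promoters of the same length, and 28 (80.0%) held CCAAT, against 37.4%. Both motifs stood in 21 of the 35, against 10.7% of all promoters. A match is a description of letters in the window and not evidence of binding.

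Hmmr went from 10.1, 19.2 and 28.3 CPM at P5 to 0.881, 1.47 and 2.02 CPM at P21, a 12-fold fall (log2 fold change -3.59 ± 0.14, edgeR adjusted p = 8.49e-16). Top2a went from 86.8, 163 and 225 CPM to 11.8, 13.6 and 19.5 CPM, a 10.4-fold fall (-3.38 ± 0.12, edgeR adjusted p = 3.23e-16). Pcna went from 121, 160 and 192 CPM to 68.5, 77.4 and 90.0 CPM, a 2.10-fold fall (-1.07 ± 0.06, edgeR adjusted p = 2.30e-12). In each of the 3 genes the lowest P5 library exceeded the highest P21 library. At P5 the XYM library of animal 26 had the lowest sum of the list and the XXF library of animal 19 the highest.

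**Figure D3:**
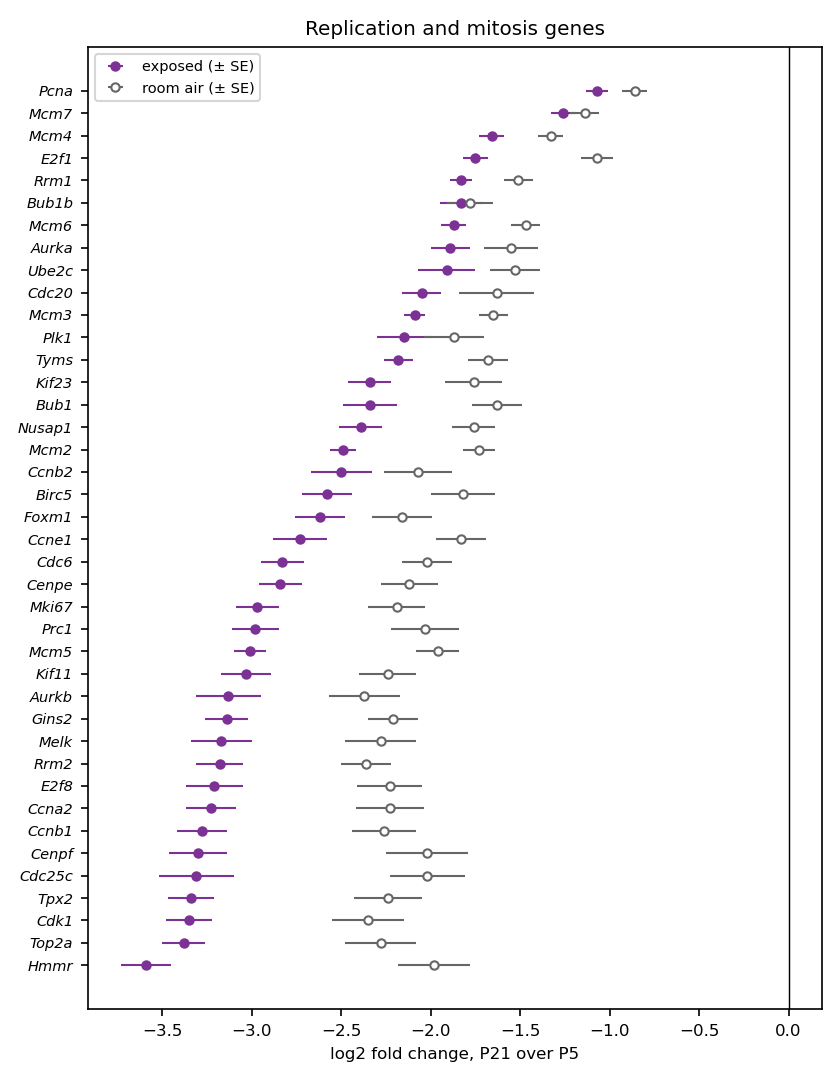
Log2 fold change from P5 to P21 (± SE) of the 40 replication and mitosis genes in exposed lungs (filled, 12 against 10 libraries) and room air lungs (open, 12 against 12), ordered by the exposed value. All values are below 0 in both, from -3.59 for Hmmr to -1.07 for Pcna in exposed lungs.

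List counts are read against the 15.4% of all tested genes that rose and the 11.4% that fell. Of 22 p53 target genes, 7 fell (31.8%) and 2 rose (9.09%, below the share over all genes). Eda2r, a member of the TNF receptor family, went from 6.32, 8.07 and 18 CPM to 1.27, 1.96 and 2.64 CPM with no overlap (log2 fold change -2.28 ± 0.20, edgeR adjusted p = 1.99e-09). The stress hormone gene Gdf15 fell as well (-1.30 ± 0.20) at low levels, with medians of 1.51 and 0.676 CPM. Psrc1 (-3.01) and Gtse1 (-2.97), which also act in mitosis, fell the most in the list. Cdkn1a, the p21 cell cycle inhibitor, had medians of 151 CPM at P5 and 113 CPM at P21 and did not pass the fold limit (-0.56 ± 0.15, edgeR adjusted p = 0.00214). Fas, a death receptor, and Btg2, an antiproliferative gene, rose by 1.32 ± 0.08 and 0.67 ± 0.09. Cdkn1a and Gdf15 here, and Lin28a, Lin28b, Ptcra, Cxcl5 and Ccl3 below, lie outside the naming rule and were chosen after their values were seen.

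Of 29 oxidant defence genes 12 rose (41.4%) and 3 fell (10.3%, near the share over all genes). The falls were Hmox1 (haem oxygenase, -0.80 ± 0.16), the metallothionein Mt2 (-0.92 ± 0.16) and the cystine transporter Slc7a11 (-1.35 ± 0.22). Hmox1 ran from 42.2 to 141 CPM at P5, with a median of 59 and the highest value in animal 25, and from 27.8 to 48.8 CPM at P21, so that the groups overlapped. The extracellular antioxidant enzymes rose the most. Sod3 went from 21.9, 25 and 32 CPM to 185, 228 and 304 CPM (3.14 ± 0.09, edgeR adjusted p = 1.69e-17), and Gpx3 from 72.3, 92.6 and 177 CPM to 766, 866 and 1223 CPM (3.09 ± 0.14), neither with any overlap. The most abundant member, the ferritin chain Fth1, rose by 0.70 ± 0.10.

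Genes of the elastic fibre fell more often than they rose, with 9 falls and 3 rises among 21 and a list median of -0.34. Loxl2, a lysyl oxidase that crosslinks matrix, went from 131, 164 and 189 CPM to 40.1, 57.7 and 81.6 CPM (-1.49 ± 0.08, edgeR adjusted p = 3.90e-13), with no overlap. The 3 rises, a share near that over all genes (14.3%), were Mfap5 0.95 ± 0.13, the latent TGF-beta binding protein Ltbp4 0.63 ± 0.08 and Lox 0.60 ± 0.08. Eln itself, elastin, had medians of 2396 CPM at P5 and 3283 CPM at P21 and did not pass the fold limit (0.47 ± 0.14, edgeR adjusted p = 0.00509). Collagens and their modifying enzymes gave 10 falls and 1 rise among 27. P4ha3, a prolyl hydroxylase subunit, fell by 2.89 and Col12a1, a fibril-associated collagen, by 2.26 on the log2 scale. The basement membrane chain Col4a1, the most abundant of the list, went from 3164, 3568 and 3909 CPM to 1114, 1995 and 2478 CPM (-0.88 ± 0.09), and its groups did not overlap. The 1 rise was P4ha2 (0.75 ± 0.09).

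Ligands, receptors and targets of septation gave 13 falls among 32 (40.6%) and 4 rises (12.5%). Among ligands, Igf1, a growth factor of the septal mesenchyme, went from 132, 141 and 167 CPM to 16.8, 26.9 and 43.6 CPM (-2.39 ± 0.10, edgeR adjusted p = 5.97e-15), and Wnt2 fell by 0.63. The vascular growth factor Vegfa did not pass the fold limit (0.39 ± 0.05, medians 618 and 813 CPM). Among receptors, Pdgfra, which marks alveolar fibroblasts and septal myofibroblast precursors, went from 49.9, 60.3 and 68.7 CPM to 264, 372 and 439 CPM, a 6.12-fold rise with no overlap (2.61 ± 0.10, edgeR adjusted p = 1.14e-15). Pdgfrb of pericytes rose by 0.64 ± 0.09, and Kdr, the endothelial VEGF receptor, fell by 0.62. Among targets, the hedgehog inhibitor Hhip went from 191, 220 and 254 CPM to 23.3, 29.5 and 61.4 CPM (-2.76 ± 0.13). Lef1, a Wnt effector that is also on the T and NK cell list, rose by 0.96 ± 0.12. The fourth rise was Fgf7 (0.94 ± 0.09).

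Imprinted genes of the perinatal growth network, which decline together in many organs as body growth slows, gave 14 falls and 1 rise among 19 tested of 20 (median -1.25). Mest, a hydrolase-like gene of mesoderm, went from 173, 192 and 237 CPM to 14.7, 23.8 and 35.3 CPM (-3.13 ± 0.14, edgeR adjusted p = 1.92e-14). Peg3, a zinc finger gene and the most abundant of the list, went from a median of 321 to 184 CPM (-0.94 ± 0.17), and its groups overlapped. The only rise was the proteoglycan Dcn (1.53 ± 0.17). Of 9 tested early-life RNA binding and chromatin genes, 6 fell and none rose, with Hmga2, a chromatin architectural gene, at -2.90 ± 0.20 and the RNA binding gene Igf2bp3 at -2.45 ± 0.13. Lin28a and Lin28b, which hold let-7 microRNAs in check early in development, were too low to test, with P5 medians of 0.274 and 0.0971 CPM.

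Epithelial marker lists held rises and no falls. Alveolar type 2 genes gave 8 rises of 16: the lysozyme gene Lyz2 went from 1729, 1965 and 2592 CPM to 4354, 5350 and 9588 CPM (1.42 ± 0.11, edgeR adjusted p = 9.09e-11), the desaturase Scd1 rose by 1.55 ± 0.16 and Sftpc by 0.72 ± 0.10. Of 14 alveolar type 1 genes, 5 rose, led by Hopx (1.15 ± 0.11) and Cav1, the caveolin of type 1 and endothelial cells (0.95 ± 0.07). Club cell genes rose most, 7 of 11 with a list median of 1.54. Scgb1a1, the club cell secretory protein, went from 3430, 4103 and 4885 CPM to 17707, 25098 and 47304 CPM (2.76 ± 0.15, edgeR adjusted p = 5.76e-13), with no overlap. The antimicrobial Bpifa1 rose by 4.03 ± 0.52 but ran from 9.62 to 938 CPM at P21, with the highest value in animal 49, and overlapped with P5. The mucin Muc5b rose by 2.92 ± 0.31.

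Of 16 ciliated cell genes 3 rose, a share of 18.8% that was near that over all genes (1 to 4 rises when single libraries were left out, and 5 without the muscle-rich libraries). Tppp3 rose by 1.19 ± 0.08 and Rsph1 of the radial spoke by 0.66 ± 0.13. The most abundant, Tubb4b, had medians of 283 and 352 CPM (0.31 ± 0.06, below the fold limit). Cytochromes and other drug-metabolising genes rose in 18 of 21 cases, with a median of 1.85. Cyp2f2 of club cells went from 579, 637 and 776 CPM to 1513, 1919 and 3093 CPM (1.61 ± 0.11), with no overlap. Cyp1a1, induced through the aryl hydrocarbon receptor, rose by 3.99 ± 0.61, from 0.155, 0.581 and 2.05 CPM to 0.777, 15.6 and 73.7 CPM, and its lowest P21 library fell within the P5 range.

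Endothelial genes gave 12 rises (48%) and 2 falls (8%) among 25. Gpihbp1, which anchors lipoprotein lipase in capillaries, went from 47.7, 54.3 and 61.5 CPM to 214, 233 and 294 CPM (2.17 ± 0.06, edgeR adjusted p = 4.59e-18), and Hpgd, which inactivates prostaglandins, from 176, 232 and 275 CPM to 691, 757 and 949 CPM (1.75 ± 0.07). Neither gene overlapped between the ages. The falls were Kdr and Apln, the apelin ligand of tip cells (-0.97 ± 0.12, medians 137 and 73.9 CPM). The junction gene Cdh5 stayed within a narrow range, with medians of 708 and 800 CPM (0.12 ± 0.09, edgeR adjusted p = 0.242).

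Among 18 genes of lipid and matrix fibroblasts, 10 rose, led by Inmt, and Slit2 (-1.39 ± 0.13) and Wnt2 fell. Fabp1, a fatty acid binding protein listed for fibroblasts and macrophages alike, was 0 CPM at the P5 median, with a highest P5 value of 0.521 CPM, and ran from 2.31 to 60.7 CPM at P21, its highest value being in the liver-rich library of animal 51. Of 16 contractile genes 5 fell and 3 rose, and without the 4 muscle-rich libraries 8 fell and 0 rose. Acta2, smooth muscle actin, went from 431, 478 and 593 CPM to 83.8, 149 and 351 CPM (-1.54 ± 0.17, edgeR adjusted p = 7.71e-08). Des and Lmod1 rose by 0.72 ± 0.18 and 0.67 ± 0.13, and neither remained a call without those libraries (0.26 and 0.45). The skeletal muscle list summed to 11 to 3130 CPM at P21 and to 7.40 to 31 CPM at P5, and its part in these changes was not tested beyond that.

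Lymphocyte genes rose together. B cell genes rose in 17 of 18 cases (median 1.91, against 0.02 over all tested genes), and their summed level went from 106, 203 and 226 CPM to 333, 664 and 1006 CPM. Ighd, the IgD heavy chain of naive B cells, went from 2.07, 6.35 and 9.43 CPM to 20.0, 42.9 and 84.2 CPM (3.10 ± 0.35, edgeR adjusted p = 8.64e-08), and Fcer2a, the low-affinity IgE receptor, rose by 2.80 ± 0.28. The exception was Ebf1 (0.04 ± 0.08), a transcription factor also found in stromal cells. Of 20 tested T and NK cell genes 18 rose, among them the IL-7 receptor Il7r (2.07 ± 0.14) and the homing receptor Ccr7 (1.98 ± 0.26). Tcf7 (-0.25 ± 0.10) and Gzmb (0.52 ± 0.37) did not pass. Of 10 MHC class II genes 9 rose, with H2-Ab1 going from 17.9, 44.9 and 58.5 CPM to 147, 206 and 320 CPM (2.44 ± 0.20, edgeR adjusted p = 5.12e-10), with no overlap. A thymus list, kept for tissue carried along, gave 5 rises of 10. It shares Cd3e, Cd4, Cd8b1, Lck and Tcf7 with the T and NK cell list, so it cannot tell thymus tissue from circulating T cells. Its summed range was 101 to 135 CPM at P5 and 93.6 to 180 CPM at P21, with the highest sum in animal 49. Ptcra, which thymocytes express, had a median of 0 CPM at both ages. Whether thymus was carried along was not tested.

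Interferon-induced genes rose in 21 of 22 cases, with a median of 1.09. Ifit1, an antiviral RNA sensor, went from 3.10, 5.99 and 9.13 CPM to 20.2, 27.2 and 48 CPM (2.32 ± 0.16, edgeR adjusted p = 2.18e-11), with no overlap. Ifit2 was the exception and fell (-0.64 ± 0.10). Of 20 tested acute inflammation genes 9 fell and 1 rose, with a list median of -0.51. With every library thinned to the smallest total, 13 of the list were tested, 4 fell and the median was 0.09, and with animals 22 and 23 kept 8 of 19 fell and the median was -0.07. The summed list, which the more abundant members set, had medians of 287 CPM at P5 and 381 CPM at P21. Saa3, an acute phase protein, went from 9.53, 22.5 and 94.4 CPM to 1.91, 4.30 and 9.95 CPM (-2.58 ± 0.38, edgeR adjusted p = 3.77e-06), with a narrow overlap, and the protease inhibitor Timp1 fell by 1.35 with none. The chemokine genes Cxcl5 and Ccl3 fell by 2.83 and 2.44 on the log2 scale, with P21 medians of 0.248 and 0.287 CPM. The only rise was Nfkbia, the inhibitor of NF-kappaB (1.29 ± 0.07). Neutrophil genes gave 3 falls among 13, Ngp (-1.63 ± 0.42), Camp (-1.22 ± 0.40) and Mmp8 (-0.61 ± 0.22), all with wide ranges that overlapped. Alveolar macrophage genes gave 8 rises (44.4%, Chil3 among them) and 3 falls (16.7%) among 18, with a list median of 0.25. Their summed level had medians of 381 CPM at P5 and 649 CPM at P21. The falls were Cd68 (-0.81 ± 0.12), the IL-1 receptor antagonist Il1rn (-0.94 ± 0.21) and Marco (-0.64 ± 0.24).

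Of 13 tested erythroid genes 7 rose. The haemoglobin chain Hbb-bs went from 1428, 1860 and 2586 CPM to 4776, 8933 and 19187 CPM (2.13 ± 0.17, edgeR adjusted p = 2.54e-10) and Hba-a2 rose by 2.15 ± 0.23. Both have near-identical copies and are uncertain as single genes. Clock genes rose in 8 of 18 cases, among them Per1 (2.21 ± 0.17), from a median of 40.7 to 199 CPM, and the repressor Nr1d1 (2.06 ± 0.15), from 16.3 to 69.7 CPM. Times of day of collection were not given in the sources used here. Of 12 genes the study picked for qPCR, 10 were tested, 6 rose and 2 fell. The largest change was that of Zbtb16, a glucocorticoid-responsive zinc finger gene (4.39 ± 0.60, medians 2.76 and 63.3 CPM). That list was chosen by the study on these samples and is not independent evidence of direction. The 2 falls in it were Peg3 and Hk3 (-0.61 ± 0.16), and Hk3 lost its call in 5 of 22 fits with 1 library left out.

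Lists for tissues that can be carried along with lung were also counted without the 4 muscle-rich libraries. All 9 tested skeletal muscle genes rose, with Acta1 at 1.01 CPM at the P5 median, 1.58 CPM at the P21 median and 833 CPM in the highest P21 library, and 1 of 8 tested rose without those libraries (1 of 9 with animals 22 and 23 kept). Heart muscle genes gave 2 rises and 4 falls among 13, and 0 rises and 3 falls without those libraries. Myh6, the cardiac alpha-myosin chain, ran from 27.5 to 187 CPM at P5 and from 5.21 to 353 CPM at P21, where the highest value was in animal 49, and lost its call in 16 of 22 fits with 1 library left out. Adipose genes rose in 8 of 9 cases (median 2.60), in 5 of 6 tested without the muscle-rich libraries (median 2.54) and in 4 of 8 with animals 22 and 23 kept. The highest adipose sum, 692 CPM, was in animal 49, which stayed in the fit without the muscle-rich libraries. The other exposed P21 libraries in that fit held 29.6 to 76.8 CPM, and the P5 libraries 6.81 to 17.2 CPM. Liver genes gave 2 rises of 5, Apoc1 (1.82 ± 0.29) and Cyp2e1 (1.95 ± 0.72), and 2 rises with 3 falls without the muscle-rich libraries. Alb ran to 3567 CPM in animal 51 and was 2.08 CPM at the P21 median. Of the 140 named genes that could be fitted both ways, 131 kept their call status and direction without the muscle-rich libraries, 5 lost a call, 1 gained one and 3 turned direction.

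**Figure D4:**
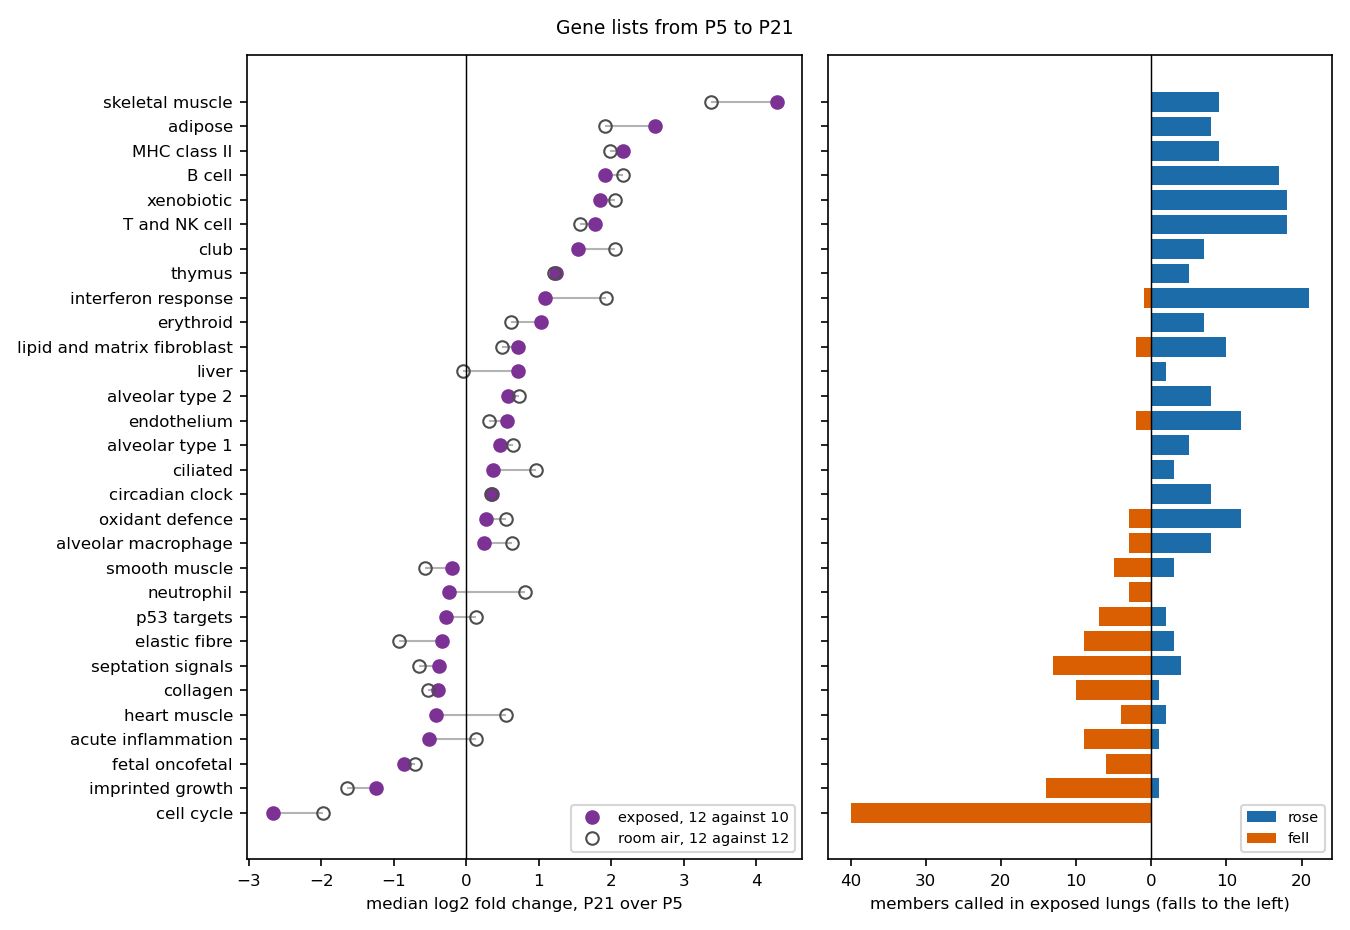
Left, median log2 fold change from P5 to P21 of each gene list in exposed lungs (filled, 12 against 10 libraries) and room air lungs (open, 12 against 12). Exposed medians come from the fit of 22 libraries and room air medians from that of 46, and the members tested differ for some lists. For liver these were 5 and 9 genes and for adipose 9 and 11. In the fit of 46 the exposed medians were 2.43 for liver (plotted at 0.72) and 3.58 for adipose (plotted at 2.60). Right, the number of list members that rose (blue) or fell (orange) in exposed lungs, from 40 falls of cell cycle genes at the bottom to 9 rises of skeletal muscle genes at the top.

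Growth from P5 to P21 also takes place in room air, so the exposed course was set against it with the interaction of age and treatment over 46 libraries (edgeR, genotype as an additive term). In room air 5686 of 17435 genes passed the same limits (32.6%). The exposed course differed from the room air course at 2179 genes (12.5%), 1002 in the higher direction (5.75%) and 1177 in the lower direction (6.75%). A difference is given as the log2 fold change in exposed lungs minus that in room air lungs, which equals the exposed over room air value at P21 minus that at P5. Both views come from the same libraries and are values side by side. For a difference without the muscle-rich libraries, room air libraries over 200 CPM of the skeletal muscle list were left out too. That fit kept 8 exposed P21 and 10 exposed P5 libraries, and 6 room air P21 and 7 room air P5 libraries. How far its lower counts came from the smaller number of libraries was not tested.

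Among called genes with a mean of at least 5 CPM in 1 or more of the 4 age and treatment groups, the 8 with the largest lower differences had exposed over room air values between 1.29 and 2.90 at P5 and between -1.03 and -0.03 at P21. Wfdc17, a macrophage protease inhibitor-like gene, had levels of 6.13, 8.80 and 15.3 CPM in exposed lungs at P5 and 2.14, 4.43 and 9.29 CPM at P21, against 0.998, 1.42 and 1.98 CPM and 3.61, 5.40 and 12.5 CPM in room air. The difference was -3.14 ± 0.31 (edgeR adjusted p = 3.32e-10), with the exposed over room air value at 2.69 at P5 and -0.44 at P21. Eda2r had room air medians of 1.88 CPM at P5 and 2.61 CPM at P21, against 8.07 and 1.96 CPM in exposed lungs, and its difference was -2.95 ± 0.25 (edgeR adjusted p = 9.96e-12), with 2.43 at P5 and -0.52 at P21. Serpina3n, an acute phase serine protease inhibitor, had P21 medians of 101 CPM in exposed and 97.4 CPM in room air lungs, but 5.11 and 0.975 CPM at P5 (difference -2.93 ± 0.36). Pigr, which carries IgA across epithelium, went from a median of 7.51 to 25.5 CPM in exposed and from 1.88 to 50.1 CPM in room air lungs (-2.73 ± 0.33). The others were the matrix phosphoprotein Spp1 (-2.78), the lectin Reg3g (-2.48), the myeloid gene Slfn4 (-2.32) and the macrophage glycoprotein Gpnmb (-2.27).

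Under the same limit the 8 genes with the largest higher differences had exposed over room air values between -5.03 and -1.45 at P5 and between 0.23 and 1.43 at P21. Chst8, a sulfotransferase, had levels of 0.748, 2.16 and 2.53 CPM in exposed lungs at P5 and 6.48, 9.10 and 13.1 CPM at P21, against 4.01, 7.00 and 7.73 CPM and 2.60, 4.36 and 6.27 CPM in room air (difference 2.94 ± 0.25, edgeR adjusted p = 1.04e-11). At each age the exposed and room air libraries of Chst8 did not overlap. Rspo4, a Wnt agonist, had exposed medians of 2.92 and 3.72 CPM and room air medians of 8.74 and 1.53 CPM (2.81 ± 0.31). Crabp1 had an exposed over room air value of -1.51 at P5 and 1.08 at P21 (difference 2.59 ± 0.36), and Dlk1 of -1.76 and 1.43 (3.19 ± 0.56, and 1.72 without the muscle-rich libraries of every group). Agt, angiotensinogen, had medians of 47.6 and 9.59 CPM in exposed and 138 and 4.99 CPM in room air lungs (2.70 ± 0.41). Otof, a calcium sensor of synaptic vesicle release, gave 2.82 ± 0.41 and Fabp1 2.73 ± 0.83, the latter with its highest P21 value in animal 51. Fabp1 lost its call without the muscle-rich libraries, and Myh3, an embryonic myosin chain and the largest value at 6.05 ± 1.57, was too low to fit there.

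**Figure D5:**
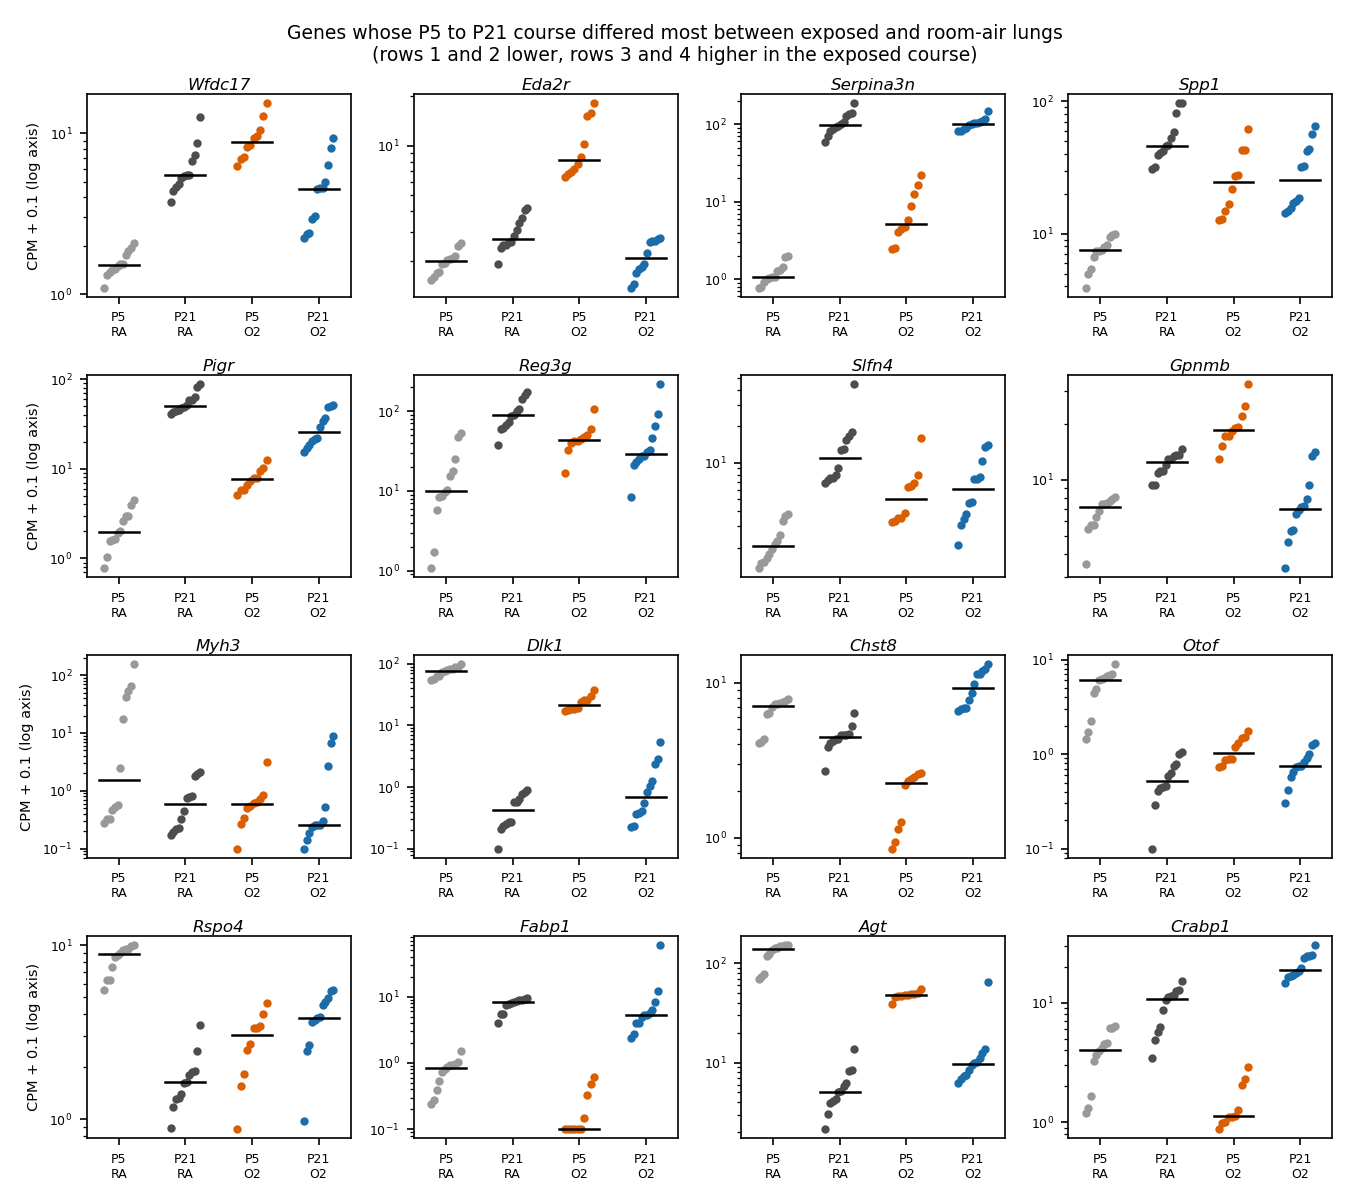
CPM plus 0.1 on a log axis for the 8 genes with the largest lower (rows 1 and 2) and the 8 with the largest higher difference (rows 3 and 4), in 12 room air libraries at P5, 12 room air libraries at P21, 10 exposed libraries at P5 and 12 exposed libraries at P21, ordered by level within a group. Black lines are medians, which for Wfdc17 were 1.42, 5.40, 8.80 and 4.43 CPM and for Chst8 7.00, 4.36, 2.16 and 9.10 CPM.

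Of the 40 replication and mitosis genes 26 were lower in the exposed course (median difference -0.75, 6.75% lower over all genes). The count was 12 (median -0.47) when the interaction was averaged over XXF, XYF and XYM mice from 16 group means, 18 (-0.70) without the muscle-rich libraries and 23 (-0.72) without animal 34, and it differed with the mice fitted. The summed list ran from 1122 to 1203 CPM in 5 of the 6 XX room air libraries at P21 (animals 34, 35, 36, 37 and 40), and from 460 to 597 CPM in the other 7 room air libraries (XXM animal 39 and all XY mice), against 390 to 472 CPM in the 12 exposed libraries of that age. In XX mice fitted alone 34 of 40 were lower (median -1.25), and in XY mice fitted alone 2 were lower and 1 higher (median -0.05). The difference between the XX and XY results was not tested. The skeletal muscle list summed to 51.2 to 9420 CPM in those 5 libraries and to 46.6 to 2049 CPM in the other 7, and its part was not tested. The fall of the list within exposed lungs does not use room air libraries.

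Pdgfra, of the septation list, and Gpihbp1, of the endothelial list, had higher differences. Pdgfra went from 171 to 344 CPM at the median in room air and from 60.3 to 372 CPM in exposed lungs (difference 1.58 ± 0.14, edgeR adjusted p = 3.29e-11), with the exposed over room air value at -1.49 at P5 and 0.10 at P21. Gpihbp1 gave 1.11 ± 0.11 (edgeR adjusted p = 1.14e-10), with -0.98 at P5 and 0.13 at P21. In the septation list 8 of 32 differed in the higher direction and 1 in the lower (5.75% and 6.75% over all genes), in the elastic fibre list 7 and 2 of 21, and in the contractile list 6 and 0 of 16. Wnt2 (0.98 ± 0.12) and Lef1 (1.25 ± 0.17, also on the T and NK cell list) were among the septation members. Loxl2 of the elastic fibre list did not pass the fold limit (0.55 ± 0.10). Imprinted genes gave 10 higher of 19 (median 0.60) and lipid and matrix fibroblast genes 8 of 18 (median 0.56). Each gave 3 without the muscle-rich libraries, with medians of 0.34 and 0.44.

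Lower differences were called at 6.75% of all genes. They were called in 8 of 22 p53 targets, 8 of 29 oxidant defence genes and 9 of 20 tested acute inflammation genes. Xenobiotic genes gave 9 of 21, with 1 higher, and interferon genes 8 of 22. Exposed over room air at P5, these 5 lists in that order had 5, 6, 10, 8 and 1 members higher and 1, 0, 1, 2 and 0 lower. At P21 they had 0 higher each, and 3, 0, 5, 2 and 7 lower. By edgeR, 6449 of 17435 genes at P5 and 3471 at P21 had an adjusted p under 0.05, with no fold limit. The share of all genes past both limits was not counted at either age, so these member counts have no like background beside them. For Hmox1 the exposed over room air value was 0.84 at P5 and -0.17 at P21 (difference -1.01 ± 0.17), and for Saa3 it was 2.56 and 0.43 (-2.13 ± 0.49). Cdkn1a had 1.83 at P5 and 0.29 at P21 (-1.54 ± 0.19, edgeR adjusted p = 5.95e-08). The interferon count was 0 in XX mice fitted alone (median -0.48) and 11 in XY mice fitted alone (median -0.67). The XX and XY interferon results were not tested against each other. Without the muscle-rich libraries the count was 12 (median -0.63). Ciliated genes gave 8 lower of 16 (median -0.60), and 4 without the muscle-rich libraries (median -0.47). Club (2 of 11), alveolar type 2 (4 of 16) and type 1 genes (3 of 14) had lower differences only. Without the muscle-rich libraries club genes gave 0 and type 2 genes 1. Their medians went from -0.44 to -0.34 and from -0.29 to -0.25. The 18 B cell and 15 erythroid genes tested had median differences of -0.10 and 0.27, with 0 called. Erythroid genes gave 3 higher of 14 in XX mice fitted alone (median 1.04). In XY mice fitted alone they gave 3 lower of 15 (median -0.72). These 2 fits were not tested against each other.

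The exposed course was also compared between sex chromosome complements and between gonads, with an interaction in the 22 exposed libraries. By edgeR 0 of 16541 genes differed between XY and XX mice (605 at an unadjusted p under 0.05, smallest adjusted p 0.0702), and DESeq2 called 3, Kctd12, Klhl29 and Gm23301. Between mice with testes and mice with ovaries edgeR called 0 genes (481 at an unadjusted p under 0.05, smallest adjusted p 0.986) and DESeq2 0. Each genotype with 3 libraries at both ages was also fitted alone. Inmt gave 7.15 in XXF, 6.30 in XYF and 5.74 in XYM mice, Prss35 gave -5.79, -5.77 and -5.20, and Pdgfra 2.49, 2.77 and 2.54. Values lay further apart for Dlk1 (-2.85, -5.98 and -4.12) and Cyp2a5 (5.30, 2.43 and 4.83). XXM mice had 1 library at P5, which limits both comparisons, and a p that misses the threshold does not show that the courses were equal.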

How the data were processed

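Whole lung RNA of 48 FCG mice (16 groups of 3: 2 ages, 2 treatments, 4 genotypes) was sequenced after oligo-dT enrichment with a stranded kit. Per the labels, HISAT2 and featureCounts were run against mm10, and the authors deposited whole-number gene counts. Versions, annotation release and strand setting of counting: not given in the sources used here. Overlapping and antisense genes are therefore uncertain. Of 52550 genes, 52403 were matched to GENCODE M21, and the other 147 held 0.0082% of counts. All 48 columns were mapped by name, 1 of them (animal 34) by genotype, treatment and animal number because its header names day 1 where the title says day 21.

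From these counts CPM were computed with TMM factors, and P21 over P5 was tested with edgeR 4.0.16 (filterByExpr, quasi-likelihood F test, two-sided, Benjamini-Hochberg over all genes tested, SE from the F statistic) in R 4.3.3. The difference between courses was the age by treatment interaction over 46 libraries. Calls needed an adjusted p under 0.05 and at least 1.5-fold. DESeq2 1.42.0, RLE factors, no low-count filter, other fold limits, thinning to 6008291 counts, the libraries of animals 22 and 23 put back, subsets of genotypes, 16 group means and each library left out were alternatives. The edgeR script was tested on simulated data. Replicates differed by more than sampling noise (chi-square per degree of freedom 3.33 to 103 in 24 pairs of exposed libraries). Depth ran from 6008291 to 31348391 counts in the exposed libraries, and p-values measure the spread between animals.

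Named genes were the 12 largest non-overlapping rises and falls with a mean of at least 20 CPM, up to 2 rises and 2 falls with at least 5 CPM and the most abundant member of each of 31 lists, the 8 largest differences in each direction with a mean of at least 5 CPM in a group, and the genes the study picked for qPCR. The members and lists were chosen with earlier results of these data known. A few list members were named after their values were seen. The methods text names no test for the counts.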

Additional observations from a re-analysis of the deposited data

Results flagged for a closer look

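In the 10 exposed P5 libraries, 20 of the 146 named genes had 1 library far from the other 9 by Dixon's test. Chance alone flags about 1 in 20 groups. In animal 19 the highest values were P4ha3 at 31.7 CPM, Apln at 215 CPM, Zbtb16 at 13.8 CPM and Hif3a at 17 CPM. Animal 31 was high for Dcn at 71.5 CPM, Muc5b at 31.4 CPM, Rsph1 at 19.3 CPM, Sln at 7.06 CPM, Mybpc3 at 25 CPM, Myh6 at 187 CPM and Reg3g at 107 CPM. In animal 29 the highest values were Actg2 at 115 CPM, Cd68 at 46.2 CPM and Slfn4 at 16 CPM. In animal 21 the highest values were Fas at 32.3 CPM, Alb at 31.5 CPM and Pck1 at 1.82 CPM. The lowest value of the 10 was that of Hopx in animal 19, at 262 CPM. Hmox1 was highest in animal 25 at 141 CPM, and Cyp1a1 in animal 26 at 2.05 CPM.

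The course from P5 to P21 differed between exposed and room air lungs by edgeR's test of the interaction, at 1002 genes in the higher and 1177 in the lower direction. Values here are log2 differences, exposed minus room air. Among leading genes of the exposed course these were Colq 0.90, Gria1 1.58, Ms4a4d -0.94, Mgl2 0.65, Slc6a2 1.55, Galnt15 1.35, Crabp1 2.59, Prss35 0.72, Col25a1 0.74, Dlk1 3.19 and Fbn2 0.70. Division genes gave Dtl -1.96, Pimreg -1.66, Pbk -1.81, Kntc1 -1.45, Iqgap3 -1.66, Hmmr -1.63, Top2a -1.12, Psrc1 -1.18 and Gtse1 -1.06, in a list whose summed P21 level was 1122 to 1203 CPM in 5 XX room air libraries and 460 to 597 CPM in the other 7. Damage and oxidant genes gave Eda2r -2.95, Gpx3 -0.67, Mt2 -1.07 and Hmox1 -1.01. Matrix and signalling genes gave Ltbp4 0.60, P4ha3 0.60, Col12a1 -0.93, Mfap4 0.71, Pdgfra 1.58, Lef1 1.25, Igf1 -0.90, Wnt2 0.98, Slit2 0.60, Rspo4 2.81, Chst8 2.94, Otof 2.82 and Agt 2.70. Imprinted genes gave Mest 0.64 and Peg3 0.71. In epithelial, endothelial and smooth muscle lists the values were Scd1 -0.74, Bpifa1 -1.82, Reg3g -2.48, Pigr -2.73, Gpihbp1 1.11, Apln -0.83 and Acta2 0.77. Immune and inflammation genes gave Wfdc17 -3.14, Serpina3n -2.93, Spp1 -2.78, Slfn4 -2.32, Gpnmb -2.27, Il1rn -0.64, Cd68 -1.18, Chil1 -0.82, Tcf7 0.70, Ifit3 -0.89, Saa3 -2.13 and Timp1 -1.07. Genes of the clock and of the study's qPCR list gave Per1 0.72, Nr1d1 -0.92, Flt3 -0.70, Prokr2 3.64, Hamp -1.89, Tlr7 -0.86 and Hk3 -1.07. For genes of muscle and liver, or high in the liver-rich library of animal 51, the values were Mybpc3 -1.75, Myh6 -1.93, Myh3 6.05, Apoc1 0.96 and Fabp1 2.73. Calls of Flt3, Hamp, Il1rn and Nr1d1 were lost in 25, 27, 25 and 26 of 46 fits with 1 library left out, and those of Ltbp4, P4ha3 and Slit2 in 12, 13 and 13. Without the muscle-rich libraries 23 genes lost their difference call. Among them were Mgl2, Ms4a4d, Prss35, Col25a1, Fbn2, Gpx3, P4ha3, Mfap4, Slit2, Mest, Peg3 and Scd1. The others were Bpifa1, Reg3g, Il1rn, Per1, Nr1d1, Flt3, Prokr2, Hamp, Mybpc3, Myh6 and Fabp1.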

How the results depend on the processing

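No paired analysis was possible because every library carries an animal number of its own. Leaving out 1 library at a time gave 2449 to 2633 rises and 1817 to 1920 falls (22 fits), 940 to 1103 higher and 1120 to 1255 lower differences (46 fits), 0 to 1 lower call between XY and XX mice (Slfn14, -1.93, without animal 51) and 0 higher, and 0 between gonads. The highest counts of differences, 1103 and 1255, came from leaving out animal 53. With no minimum fold the course gave 5430 rises and 5014 falls and the difference 3331 and 2817. At 2-fold these were 1255 and 927, and 321 and 374. With no low-count filter 3840 genes rose, and 12 were lower in mice with testes, all genes expressed in liver, whose list reached 6572 CPM in animal 51. DESeq2 called 3 higher differences between XY and XX mice (Kctd12 0.62, Klhl29 1.09, Gm23301 2.14). The fits without muscle-rich libraries (over 200 CPM of the skeletal muscle list) and, for the difference, within XX and within XY mice were chosen after seeing the data. Without muscle-rich libraries 2534 genes rose and 2060 fell, and 766 differences were higher and 834 lower. The fit of 16 group means gave 967 higher and 1056 lower differences. XX mice alone gave 497 higher and 669 lower, XY mice alone 953 and 1002. With animals 22 and 23 kept 2322 rose and 1692 fell, and thinned to 1 depth 2021 and 1548. Reversed course values were Alb -1.32 without animal 51 (-1.32 to 2.30 over single libraries left out), Alb -2.20, Actg2 0.31 and Camp 0.00 in XYM mice, Myh6 0.82 in XXF mice, Acta1 -2.65, Sln -0.99, Myl3 -0.78 and Ltf -1.64 in XYF mice, and Alb -1.49, Acta1 -1.07 and Myl3 -0.02 without muscle-rich libraries. Reversed differences were Acta1 -3.60 without muscle-rich libraries, Camp 2.19 in XX mice and Pimreg 0.24 in XY mice. The cause was not tested. Without muscle-rich libraries 23 named genes lost a difference call and 4 gained one. Depth limits genes of few counts: Lin28a, Prokr2 and Hamp were under the filter in exposed lungs.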
